A study of Mus musculus with 6 samples.

Results

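The genes described here are 8 p53 targets that act on metabolism. They are the sestrin genes Sesn1, Sesn2 and Sesn3, the mTOR inhibitor gene Ddit4, the AMPK beta subunit genes Prkab1 and Prkab2, the glutaminase gene Gls2 and the glutathione peroxidase gene Gpx1. They were chosen by gene symbol, and each matched 1 of the 47719 gene rows listed for every mouse. RNA was measured in whole prostates of B6.129S4-Trp53tm3.1Tyj/J mice, 2 for each genotype. Wildtype mice (Trp53+/+) carried 0 copies of the R270H allele, heterozygous mice (Trp53R270H/+) carried 1 and homozygous mice (Trp53R270H/R270H) carried 2. At an age of about 3 months every animal, wildtype controls included, had been irradiated with 5 Gy over the whole body, and the prostate was taken 6 h afterwards. No unirradiated group was compared, so the values are levels after irradiation and not responses to it. R270H lies in the DNA-binding domain of p53, and the labels name no Cre, promoter or litter.

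Damage-activated p53 restrains growth partly through metabolism. Sestrins and the Ddit4 product, also called REDD1, both lower the activity of mTORC1, the kinase complex that drives protein synthesis when nutrients are plentiful. Sestrins do so through amino acid sensing and by binding AMPK, the kinase that responds to falling cellular energy, and REDD1 does so through the TSC complex. AMPK is built of a catalytic alpha, a scaffold beta and a regulatory gamma subunit, and the beta subunit comes from Prkab1 or Prkab2. Gls2 and Gpx1 belong to the antioxidant side of p53, since glutaminase feeds glutathione synthesis and glutathione peroxidase uses glutathione to remove hydrogen peroxide.

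Sesn2 was 6.02-fold lower in homozygous than in wildtype prostates and was the 1 member that passed the test described below. Its promoter is printed here with that of Ddit4, since the FPKM (fragments per kilobase of transcript, scaled to the library's mapped total) of both genes was ordered downward, without overlap, from wildtype to heterozygous to homozygous mice. An internal promoter of Sesn1 is added because it held the only match to the p53 consensus decamer (no mismatch, both strands) among the 8 RefSeq promoter windows of the members. These windows cover 250 bases before the transcription start in GRCm38.p6 and were found for 7 of the 8 genes, with 2 starts for Sesn1. The match is in capitals, 173 bases before the start, and bases inside annotated exons are left out.
Sesn2, chr4:132510502-132510706, minus strand: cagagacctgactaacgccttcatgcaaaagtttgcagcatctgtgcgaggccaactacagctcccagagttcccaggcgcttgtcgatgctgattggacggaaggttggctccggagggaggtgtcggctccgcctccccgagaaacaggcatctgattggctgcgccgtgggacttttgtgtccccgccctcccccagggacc
Ddit4, chr10:59951835-59952020, minus strand: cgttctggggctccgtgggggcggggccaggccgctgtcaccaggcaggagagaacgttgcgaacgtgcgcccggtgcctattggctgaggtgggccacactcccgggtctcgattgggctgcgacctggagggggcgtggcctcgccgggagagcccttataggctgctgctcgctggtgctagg
Sesn1, chr10:41887189-41887438, plus strand: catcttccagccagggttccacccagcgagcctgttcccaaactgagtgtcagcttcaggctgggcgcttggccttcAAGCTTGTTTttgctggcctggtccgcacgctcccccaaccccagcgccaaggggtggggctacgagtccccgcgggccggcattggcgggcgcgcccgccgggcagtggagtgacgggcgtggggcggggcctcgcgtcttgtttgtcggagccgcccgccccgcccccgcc

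Of all 32851 promoter windows, 2341 (7.13%) held the p53 decamer and 21 (0.0639%) held a full site, a pair of decamers with at most 13 bases between them. No member window held a full site. These are matches of letters in short windows and say nothing of p53 binding elsewhere in the genes. The windows of Sesn2 and Ddit4 had a GC content of 63.2% and 70.0%, against a median of 52.4% over all windows. This was not particular to them. The other member windows lay between 59.6% (Sesn3) and 71.2% (Sesn1), except that of Gpx1 (42.0%).

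The tissue checks bear on several members. Trp53 itself, which the mutation leaves transcribed, had an FPKM between 17.3 and 21.4 over the 6 mice, and gene-level values do not separate the alleles. The 9 luminal prostate markers were above 0 in every mouse, and their summed FPKM was 68997 in wildtype mouse 39 against 32771 to 40404 in the others. Between homozygous and wildtype mice their median log2 difference was -0.69. At an unadjusted p under 0.05, 2 of the 9 were lower and 0 higher, where 9.32% of all tested genes were lower and 8.65% higher. Of the 9, 0 passed adjustment in limma. By gene, homozygous mouse 47 stood apart with an FPKM of 257 for the secretory gene Pbsn, against 7329 to 11512 in the other mice. Wildtype mouse 39 also stood apart, with a summed FPKM of 3488 for the 7 seminal vesicle markers against 35187 to 59466 in the others. Of the 7, 3 were at 0 in homozygous mouse 47 and 1 in homozygous mouse 49. Between homozygous and wildtype mice, 1 of the 7 was lower at an adjusted p under 0.05 in limma, as 0.384% of all tested genes passed. The median log2 difference of the 7 was 3.53. The 16 skeletal muscle markers summed to an FPKM of 2131 and 3068 in wildtype mice, 5876 and 6162 in heterozygotes and 7270 and 6226 in homozygotes. None of the 16 was at 0 in any mouse. At an unadjusted p under 0.05, 14 of the 15 tested were higher in homozygous mice, against 8.65% of all tested genes. In heterozygous mice 14 were higher, against 4.66% of all tested genes, but 0 passed adjustment in limma in either comparison. In whole tissue, fewer cells of a type and less RNA per cell cannot be told apart.

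For the tests, log2(FPKM + 0.1) was fitted with limma for 13818 genes, those whose mean FPKM reached 1, and p-values were adjusted by Benjamini-Hochberg over all of them. This filter on low values kept 7 of the 8 members, all but Gls2. With 2 mice per genotype, the p-values set each difference against the spread between these mice, which limma moderated by that of genes with like FPKM. Between homozygous and wildtype mice, 1 of the 7 tested members had an adjusted p under 0.05, where 0.384% of all tested genes did. Lower values at an unadjusted p under 0.05 were found for 3 of the 7 (Sesn2, Ddit4 and Prkab1), against 9.32% of all tested genes, and higher values for 0 of the 7, against 8.65%. The study had listed Ddit4 and Prkab1 as changed p53 targets from these same mice. Counts of members that include them, here and below, are thus not independent of these data. The median difference over the 7 was -0.41 on the log2 scale, and -0.04 over all tested genes. The median of the luminal markers, -0.69 as given above, was lower than the median of the members. Single luminal markers ranged from -3.35 to 0.30, and Sesn2 (-2.59) and Ddit4 (-1.10) were below the luminal median. The part of the luminal markers in the members' values was not tested. Fold changes on this scale understate the change of genes with low FPKM.

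**Figure D1:**
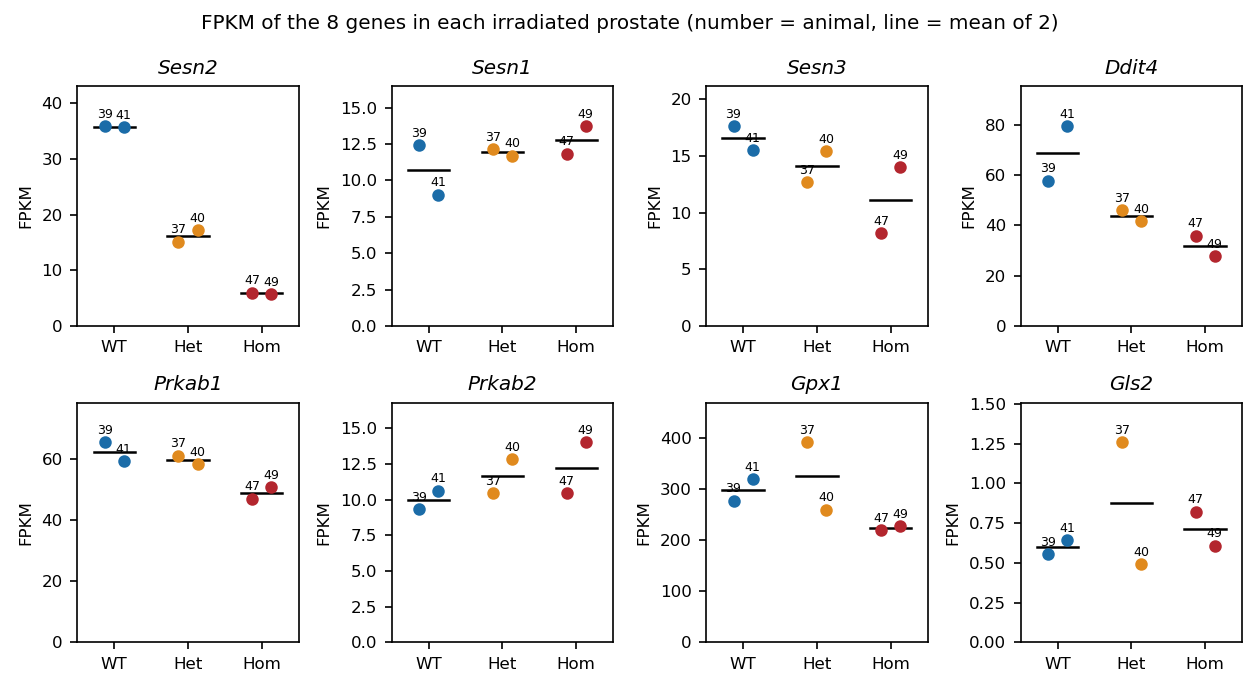
FPKM of each of the 8 genes (vertical axes, from 0) in the 2 wildtype (WT), 2 heterozygous (Het) and 2 homozygous (Hom) mice; points are single mice with the animal number and lines are means of 2. Sesn2 steps down from 35.9 and 35.7 in wildtype to 5.98 and 5.74 in homozygous mice, the Ddit4 points keep the same order, and the points of Sesn1, Prkab2 and Gls2 overlap between genotypes.

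Sesn2 (ENSMUSG00000028893, chromosome 4, 132492032 to 132510501 of GRCm38, minus strand, protein coding) encodes the stress-induced sestrin that also serves as a leucine sensor for mTORC1. Its FPKM was 35.9 in wildtype mouse 39 and 35.7 in wildtype mouse 41, 15.1 in heterozygous mouse 37 and 17.1 in heterozygous mouse 40, and 5.98 in homozygous mouse 47 and 5.74 in homozygous mouse 49. The 2 mice of a genotype were close to each other and the genotypes were far apart, with no overlap. The means were 35.8 ± 0.190 (SD, n = 2) in wildtype mice, 16.1 ± 1.44 (SD, n = 2) in heterozygotes and 5.86 ± 0.171 (SD, n = 2) in homozygotes.

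Sesn2 fell 6.02-fold in homozygous against wildtype mice, a log2 difference of -2.59 (standard error, SE, 0.12, 95% interval -2.88 to -2.30, limma adjusted p = 0.00390). By p-value it ranked 3 of the 13818 tested genes in this comparison, and 110 tested genes, Sesn2 included, had a log2 difference at or below -2.59. Its moderated F-test over the 3 genotypes gave an adjusted p of 0.0121 from limma, where 0.101% of tested genes had an adjusted p under 0.05. That call was lost with any 1 mouse left out and with each gene tested alone, where 0 members passed. In heterozygous mice Sesn2 was lower by a log2 difference of -1.15 (SE 0.12, 95% interval -1.44 to -0.86), with an unadjusted p of 8.25e-05 and an adjusted p of 0.127 from limma, so it did not pass. Sesn2 and Ddit4 were the 2 of 7 members lower here at an unadjusted p under 0.05, where 2.21% of tested genes were, and 0 of the 7 were higher, against 4.66%. That contrast called 0 of the 13818 genes in limma, with 949 at an unadjusted p under 0.05, and an unmoderated test of each gene alone also called 0, with 1020 at an unadjusted p under 0.05.

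From heterozygous to homozygous mice the difference in Sesn2 was -1.44 (SE 0.12, limma adjusted p = 0.0771), in a comparison where 0.0145% of tested genes passed. It was the 1 member lower here at an unadjusted p under 0.05, against 4.42% of tested genes. The heterozygous mice thus showed 44.3% of the homozygous change on the log2 scale. Measured against the midpoint of wildtype and homozygous mice, the heterozygous level differed by 0.15 (95% interval -0.10 to 0.40, adjusted p = 0.980 from limma), an interval that leaves room for a departure in either direction. With each mouse left out in turn, the homozygous difference stayed between -2.62 and -2.56, with limma adjusted p-values from 0.0259 to 0.0460. Without homozygous mouse 47, the mouse with little Pbsn, it was -2.62 (adjusted p = 0.0460 from limma). In the test of each gene alone the adjusted p was 0.189, and no gene of 13818 passed there.

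Sesn1 (ENSMUSG00000038332, chromosome 10, 41809935 to 41908424, plus strand), the sestrin first described as a p53-regulated gene, had overlapping values. Its FPKM was 12.4 and 9.03 in wildtype mice, 12.2 and 11.7 in heterozygotes and 11.8 and 13.7 in homozygotes. Mouse 41 had the lowest of these and mouse 49 the highest. The log2 difference of homozygous from wildtype mice was 0.27 (95% interval -0.18 to 0.72, adjusted p = 0.484 from limma), and that of heterozygous mice was 0.17 (95% interval -0.28 to 0.62, adjusted p = 0.929 from limma). The upper and lower bounds leave room for a moderate change either way. Sesn1 is also expressed in skeletal muscle, whose markers were higher in the mutant mice as given above, and their part in the Sesn1 values was not tested. Gene-level FPKM adds the transcripts from both Sesn1 starts, so the one behind the p53 decamer was not measured by itself.

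Sesn3 (ENSMUSG00000032009, chromosome 9, 14275067 to 14333101, plus strand), a sestrin better known as a FoxO target, had a homozygous difference between those of Sesn1 and Sesn2. Its FPKM was 17.7 and 15.5 in wildtype mice, 12.7 and 15.5 in heterozygotes and 8.17 and 14.0 in homozygotes. Both homozygous values were below both wildtype values, but mouse 47 and mouse 49 differed from each other more than mouse 49 did from wildtype mouse 41. The log2 difference from wildtype was -0.63 in homozygotes (SE 0.27, 95% interval -1.29 to 0.04, limma adjusted p = 0.294), and without homozygous mouse 47 it was -0.24 (adjusted p = 0.603 from limma). In heterozygotes it was -0.24 (95% interval -0.90 to 0.42, adjusted p = 0.931 from limma).

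Sesn2 made up 54.4% and 59.2% of the summed sestrin FPKM in wildtype mice, 37.8% and 38.7% in heterozygotes and 23.0% and 17.1% in homozygotes. In wildtype mice Sesn2 had the highest FPKM of the family, and in both homozygous mice the lowest. The sum itself was 66.0 and 60.2 in wildtype mice, 40.0 and 44.3 in heterozygotes and 26.0 and 33.5 in homozygotes, without overlap.

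Ratios taken within a mouse do not depend on how the mice are scaled to each other. The ratio of Sesn2 to Sesn1 was 2.89 and 3.95 in wildtype mice, 1.24 and 1.47 in heterozygotes and 0.505 and 0.417 in homozygotes. That of Sesn2 to Sesn3 was 2.03 and 2.29, 1.19 and 1.11, and 0.732 and 0.410 in the same order. On the log2 scale, homozygous mice were lower than wildtype mice by a difference of -2.88 in the first ratio and -1.98 in the second. These ratios, and those below, were chosen after the values had been seen. They are given as a description, and no test of them is reported.

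**Figure D2:**
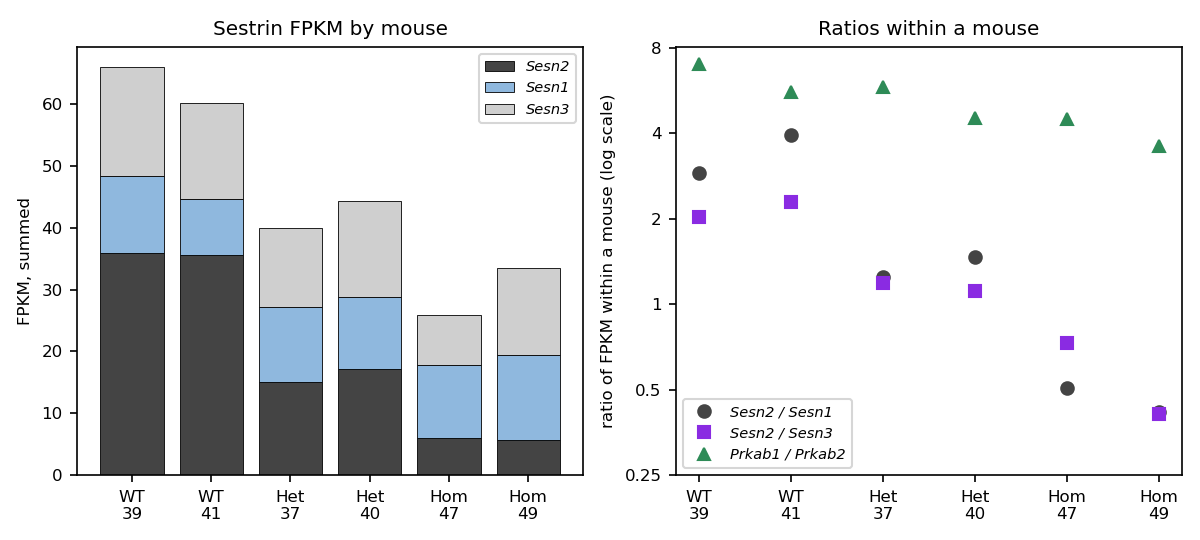
Left, FPKM of Sesn2, Sesn1 and Sesn3 stacked for each mouse (animal numbers below the genotype); right, ratios of FPKM within each mouse on a log axis. The Sesn2 segment shrinks from 35.9 and 35.7 to 5.98 and 5.74 while the Sesn1 segment stays between 9.03 and 13.7, and the Sesn2 to Sesn1 ratio drops from 2.89 and 3.95 to 0.505 and 0.417.

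Ddit4 (ENSMUSG00000020108, chromosome 10, 59949669 to 59951834, minus strand) encodes REDD1. The study singled out Ddit4 and Prkab1 as changed p53 targets from these same mice, so their directions are not independent evidence. The FPKM of Ddit4 was 57.8 and 79.5 in wildtype mice, 46.0 and 41.7 in heterozygotes and 35.9 and 27.6 in homozygotes. The genotypes did not overlap, although the wildtype mice differed from each other by more than the heterozygous and homozygous means did. In homozygotes its log2 difference from wildtype was -1.10 (SE 0.21, 95% interval -1.61 to -0.59, unadjusted p = 0.00202, limma adjusted p = 0.121). In heterozygotes it was -0.63 (95% interval -1.14 to -0.12, unadjusted p = 0.0240, adjusted p = 0.603 from limma). Neither passed adjustment. The homozygous difference lay between -1.33 (without mouse 39) and -0.87 (without mouse 41) with 1 mouse left out, and was -1.29 without mouse 47 and -0.91 without mouse 49.

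The ratio of Sesn2 to Ddit4 within a mouse was 0.622 and 0.448 in wildtype mice, 0.329 and 0.411 in heterozygotes and 0.167 and 0.208 in homozygotes. The genotypes did not overlap, and the difference of homozygous from wildtype mice was -1.51 on the log2 scale, with no test reported. Sesn2 and Ddit4 were the 2 of 7 tested members ordered downward with the number of R270H alleles without overlap, as 4.98% of all tested genes were. Upward order was found for 0 of the 7, against 3.85% of all tested genes. The count of ordered members was also 2 after quantile normalization and after median scaling.

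The AMPK beta subunits moved little. Prkab1 (ENSMUSG00000029513, chromosome 5, 116013586 to 116024508, minus strand), the gene of the beta1 subunit, had an FPKM of 65.3 and 59.3 in wildtype mice, 61.0 and 58.2 in heterozygotes and 47.0 and 50.7 in homozygotes. Wildtype and heterozygous mice overlapped, and both homozygous mice were below all others. The log2 difference of homozygous from wildtype mice was -0.35 (95% interval -0.64 to -0.06, unadjusted p = 0.0263, adjusted p = 0.228 from limma), and that of heterozygous mice was -0.06 (95% interval -0.36 to 0.23, adjusted p = 0.967 from limma). Without mouse 47 the homozygous difference was -0.30 (limma adjusted p = 0.477). From heterozygous to homozygous mice it was -0.29 (SE 0.12, limma adjusted p = 0.707).

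Prkab2 (ENSMUSG00000038205, chromosome 3, 97658193 to 97673812, plus strand) encodes the beta2 subunit, the form that predominates in skeletal muscle. Its FPKM was 9.35 and 10.6 in wildtype mice, 10.5 and 12.8 in heterozygotes and 10.4 and 14.0 in homozygotes, with overlap of all genotypes. Its log2 difference from wildtype was 0.22 in heterozygotes (95% interval -0.26 to 0.69, adjusted p = 0.913 from limma) and 0.27 in homozygotes (95% interval -0.20 to 0.75, adjusted p = 0.492 from limma). The muscle markers given above were higher in the same mice, and their part in these values was not tested.

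Prkab1 supplied most of the beta subunit FPKM in every mouse, with 87.5% and 84.8% in wildtype mice, 85.4% and 81.9% in heterozygotes and 81.8% and 78.4% in homozygotes. The ratio of Prkab1 to Prkab2 ran from 6.99 and 5.58 in wildtype mice over 5.83 and 4.53 in heterozygotes to 4.50 and 3.62 in homozygotes. Wildtype and heterozygous mice overlapped in this ratio, and the log2 difference between homozygous and wildtype mice was -0.63.

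Gpx1 (ENSMUSG00000063856, chromosome 9, 108338903 to 108340343, plus strand) had the highest FPKM of the 8 genes in each mouse. It measured 278 and 320 in wildtype mice, 392 and 260 in heterozygotes and 220 and 228 in homozygotes. The homozygous mice were the lowest and close together, while the heterozygous mice spanned the wildtype range and beyond. The log2 difference of homozygous from wildtype mice was -0.41 (95% interval -0.98 to 0.16, adjusted p = 0.398 from limma), and that of heterozygous mice was 0.10 (95% interval -0.47 to 0.67, adjusted p = 0.971 from limma).

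Gls2 (ENSMUSG00000044005, chromosome 10, 128194457 to 128210004, plus strand), the glutaminase gene classed as a p53 target, had a mean FPKM of 0.730, under the filter of 1. Its FPKM was 0.553 and 0.643 in wildtype mice, 1.26 and 0.493 in heterozygotes and 0.823 and 0.609 in homozygotes. The heterozygous mice held both the highest and the lowest value. In a fit without a filter on low values, its log2 difference from wildtype was 0.37 in heterozygotes (SE 0.48, limma adjusted p = 0.928) and 0.22 in homozygotes (95% interval -1.03 to 1.46, adjusted p = 0.879 from limma), an interval too wide to show a change of moderate size.

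**Figure D3:**
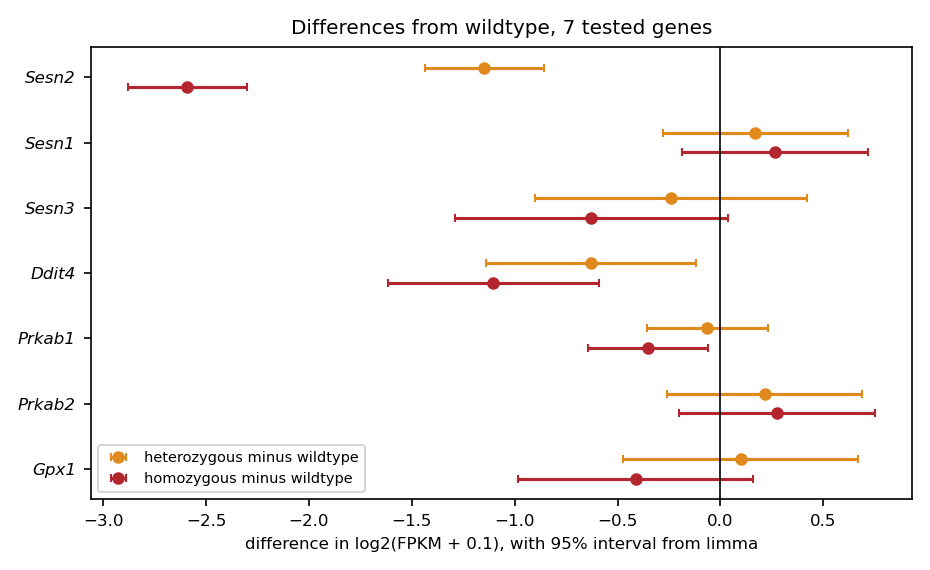
Differences in log2(FPKM + 0.1) from wildtype for the 7 tested genes, in heterozygous and homozygous mice; points are estimates and bars 95% intervals from limma, not adjusted for the number of genes. Sesn2 lies at -1.15 and -2.59, Ddit4 at -0.63 and -1.10, and the homozygous intervals of Sesn1, Sesn3, Prkab2 and Gpx1 include 0.

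Set side by side by FPKM, which is per length, the order of the genes in wildtype prostates was Gpx1 (mean FPKM 299 ± 29.7, SD, n = 2 here and in what follows), Ddit4 (68.7 ± 15.4), Prkab1 (62.3 ± 4.27), Sesn2 (35.8 ± 0.190), Sesn3 (16.6 ± 1.49), Sesn1 (10.7 ± 2.39), Prkab2 (9.99 ± 0.905) and Gls2 (0.598 ± 0.0640). The values of Ddit4 and Prkab1 overlapped in these mice, as did those of Sesn1 and Prkab2. In homozygous prostates Prkab1 (48.8 ± 2.61) stood above Ddit4 (31.8 ± 5.85), and Sesn2 (5.86 ± 0.171) stood below Sesn1 (12.8 ± 1.35), Prkab2 (12.2 ± 2.52) and Sesn3 (11.1 ± 4.13). Of the 7 tested members, 5 had both homozygous values below both wildtype values, which held for 28.7% of all tested genes, and 3 had both heterozygous values below both wildtype values, against 19.9%. The 5 are Sesn2, Sesn3, Ddit4, Prkab1 and Gpx1, and the 3 are Sesn2, Sesn3 and Ddit4. None had both homozygous values above both wildtype values, against 21.3% of all tested genes.

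Other genes of these pathways were read from lists. Among 16 further metabolic p53 targets, of which 15 were tested, 2 had an adjusted p under 0.05 in homozygous mice and both were lower. These were Phlda3, whose product restrains Akt at the membrane, and Cpt1c, a carnitine palmitoyltransferase of nervous tissue. The FPKM of Phlda3 was 115 and 100.3 in wildtype mice, 61.4 and 57.5 in heterozygotes and 28.6 and 25.0 in homozygotes, a homozygous log2 difference of -2.00 (SE 0.13, limma adjusted p = 0.0126). That of Cpt1c was 9.68 and 10.0, 5.60 and 5.07, and 2.48 and 3.07, with a difference of -1.80 (SE 0.16, limma adjusted p = 0.0291). In both genes, as in Sesn2, the genotypes did not overlap.

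At an unadjusted p under 0.05, 5 of the 15 were lower and 3 higher in homozygous mice, where 9.32% of all tested genes were lower and 8.65% higher, and the list's median was -0.32. The same shares are the background of the homozygous counts for the lists that follow. The list did not move one way, and it was not divided by whether p53 raises or lowers a gene. The 3 higher genes were Tigar, Hk2 (log2 difference 0.97) and Pgm2 (0.49), the last 2 also named after their values were seen. Tigar, a p53 target that lowers glycolysis, had an FPKM of 3.63 and 2.67 in wildtype mice, 3.70 and 4.77 in heterozygotes and 4.61 and 4.93 in homozygotes, a log2 difference of 0.60 (adjusted p = 0.248 from limma), and was chosen for mention after its values were seen. In heterozygous mice 0 of the 15 passed adjustment in limma, and 4 were lower and 1 higher at an unadjusted p under 0.05, where 2.21% of all tested genes were lower and 4.66% higher.

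The machinery on which sestrins and REDD1 act showed no adjusted call in limma in any pairwise comparison. In the 12 genes of the mTOR complexes and their direct targets, 0 had an unadjusted p under 0.05 between homozygous and wildtype mice, and the median log2 difference was -0.09. Eif4ebp2, a translation repressor that mTORC1 phosphorylates, had the largest, at -0.54 (SE 0.29, limma adjusted p = 0.382). Its FPKM was 54.9 in homozygous mouse 47 and 102 in homozygous mouse 49, against 117 and 101 in wildtype mice. Eif4ebp1 had -0.26 (adjusted p = 0.527 from limma). Of the 24 genes of the TSC, Rheb and amino acid sensing arm, 22 were tested, with 3 lower and 0 higher at an unadjusted p under 0.05, a share of lower genes near the 9.32% of all tested genes, and a median of -0.04. The 3 lower genes were Ddit4l (log2 difference -0.47), Tsc2 (-0.37) and Wdr24 (-0.30), named after their values were seen. Depdc5, part of the complex that switches Rag GTPases off, was not one of them. It had -1.07 (SE 0.45, unadjusted p = 0.0558, limma adjusted p = 0.289), with 8.10 in homozygous mouse 47 and 22.2 in homozygous mouse 49. Rragb, a Rag GTPase, had 0.53 (adjusted p = 0.416 from limma).

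Among the 11 other AMPK subunit and upstream kinase genes, 0 passed adjustment in limma and 1 was higher and 1 lower in homozygous mice at an unadjusted p under 0.05, with a median of 0.05. Prkag3, the gamma subunit gene of skeletal muscle, had an FPKM of 0.899 and 1.47 in wildtype mice, 2.62 and 2.66 in heterozygotes and 3.45 and 2.65 in homozygotes. Its log2 difference was 1.32 (SE 0.30, limma adjusted p = 0.149), and that of Prkaa2, the alpha subunit gene prominent in muscle, was 0.52 (SE 0.33, limma adjusted p = 0.451). The skeletal muscle markers were higher in the same mice, and their part was not tested.

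On the glutathione side no gene passed either. Of the 11 glutamine and glutathione genes, 10 were tested and 0 passed adjustment in limma, with 1 higher and 2 lower in homozygous mice at an unadjusted p under 0.05 and a median of 0.11. Gss, glutathione synthetase, had a log2 difference of -1.16 (SE 0.28, limma adjusted p = 0.157) and the glutamine transporter gene Slc1a5 one of -0.56 (SE 0.15, limma adjusted p = 0.185). In the 18 genes for removal of peroxide and superoxide, 0 passed adjustment in limma, 1 was higher and 1 lower at an unadjusted p under 0.05, and the median was -0.10. Prdx6, a peroxiredoxin, had -1.90 (SE 0.66, limma adjusted p = 0.235), with an FPKM of 506 in homozygous mouse 47 and 1762 in mouse 49. Gpx7, a peroxidase of the endoplasmic reticulum, had 0.80 (SE 0.19, limma adjusted p = 0.164).

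**Figure D4:**
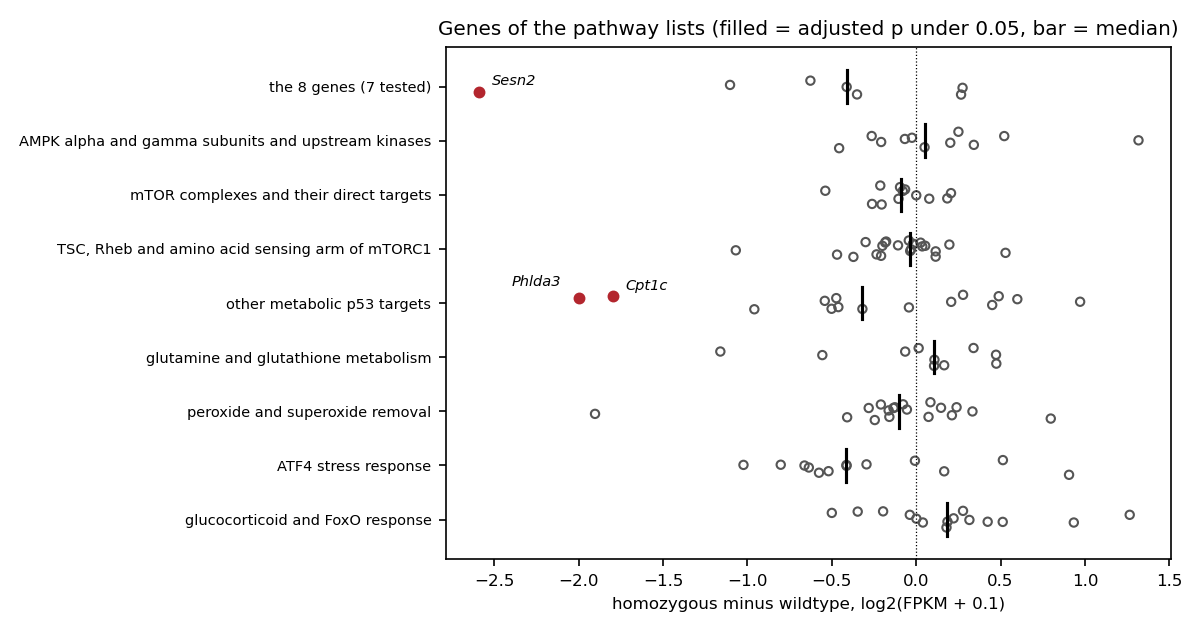
Difference of homozygous from wildtype mice in log2(FPKM + 0.1) for each tested gene of the 8 pathway lists and of the members (rows); filled points have an adjusted p under 0.05 and bars are list medians, from -0.41 for both the members and the ATF4 list to 0.19 for the glucocorticoid and FoxO list. The 3 filled points are Sesn2 at -2.59, Phlda3 at -2.00 and Cpt1c at -1.80.

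As a description over 6 mice, the tested genes with the profile most like that of a member were found by Pearson's r of log2(FPKM + 0.1). For Sesn2 they were Aen, a nuclease gene of the p53 response (r = 0.996), and Plekhg6 (r = 0.994). The FPKM of Aen was 51.5 and 45.4 in wildtype mice, 24.1 and 23.2 in heterozygotes and 8.96 and 8.12 in homozygotes, without overlap, as for Sesn2. For Ddit4 they were Pam16 (r = 0.992) and Sirt4 (r = 0.988), for Prkab1 Mllt1 (r = 0.998) and Spryd3 (r = 0.994), and for Prkab2 Zfp445 (r = 0.999) and Rnf150 (r = 0.994). Sesn1 was nearest to Tifa (r = 0.988) and Dnajc28 (r = 0.987), Sesn3 to Adgra3 (r = 0.994) and Ppp2r3c (r = 0.994), Gpx1 to Bag6 (r = 0.996) and Pafah1b3 (r = 0.993), and Gls2 to Tarbp2 (r = 0.985). With 13818 genes and 6 points such values are high for any gene, and no likeness was tested.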

How the data were processed

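Per the labels and the study's methods, the authors prepared stranded mRNA libraries (TruSeq) from snap-frozen prostates, aligned the reads with HISAT to GRCm38 (mm10) and deposited gene-level FPKM from Cufflinks for each mouse. Cuffnorm is also named in the submitters' processing notes. Versions and the annotation are not given in the sources used here. The deposited FPKM hold no fragment counts, so the counting error of a value is unknown. From the commonest ratio of low values (FPKM under 0.1), fragments relative to wildtype mouse 39 lay between 0.785 in mouse 47 and 1.07 in mouse 49. FPKM summed to between 518671 and 636407 per mouse.

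Genotypes came from the labels, which do not say whether mice shared a litter or were processed together. With limma 3.58.1 (R 4.3.3), log2(FPKM + 0.1) was modelled on the 3 genotypes (eBayes with intensity trend, 2.77 prior and 3 residual degrees of freedom), with contrasts between genotypes, the heterozygous contrast against the midpoint, and Benjamini-Hochberg adjustment over the 13818 genes whose mean FPKM reached 1. Where 1 symbol had several identifiers, the one with the highest mean FPKM was used. Positions are from GENCODE M21 (GRCm38), promoters from RefSeq (GRCm38.p6). Python 3.11.15, numpy 2.4.6, pandas 2.3.3 and matplotlib 3.10.9 were used. The members and lists were chosen with earlier results of these data known. Named besides the members are, per pathway list, genes with an adjusted p under 0.05 or else the 2 with the largest homozygous difference, and the 2 genes most like each member (no predicted or RIKEN names; 1 of these is not reported here). The alternatives were pseudocounts of 1 and 0.01, no filter, a minimum mean FPKM of 5, median scaling, quantile normalization, no intensity trend, each gene alone, and leaving out each mouse.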

Additional observations from a re-analysis of the deposited data

How the results depend on the processing

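Sesn2 kept its direction in all 3 pairwise comparisons under each alternative, and its homozygous fall had an adjusted p under 0.05 in each except the test of each gene alone (-2.59, adjusted p = 0.189), where 0 members and 0 genes passed, against 53 genes in the moderated fit. The number of genes called between homozygous and wildtype mice was 4 with no filter (more genes tested), 23 with no intensity trend, and between 4 and 96 with each mouse left out. For the 3 genotypes together it was 14, falling to 3 with no filter, 4 with quantile normalization, 9 with no intensity trend, 0 with each gene alone, and 0 to 9 without a mouse, where 0 members passed in place of 1 for every mouse left out. Without any 1 of mice 39, 41, 47 or 49, 1 gene was called between heterozygous and wildtype mice in place of 0. Left-out mice thus gave 0 to 1 there, 0 to 40 between homozygous and heterozygous mice (2 in the full fit, 1 with a pseudocount of 0.01 and with a mean FPKM of at least 5, 0 with each gene alone), and 0 to 3 against the midpoint (1 with no intensity trend, 0 in the full fit). Genes rising with allele number numbered 279 at a mean FPKM of at least 5, against 532. In a left-out fit the lone mouse is assumed to vary like the other groups.

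Small differences changed sign when 1 mouse was left out, and none of these had passed. Against wildtype, heterozygous Sesn1 became -0.058 without mouse 41 (to 0.397 without mouse 39), Prkab1 0.0067 without mouse 39 (to -0.133 without mouse 41), and Gpx1 -0.0038 without mouse 39 and -0.20 without mouse 37 (to 0.393 without mouse 40). Between homozygous and heterozygous mice, Sesn1 became -0.010 without mouse 49 (to 0.203 without mouse 47), and Prkab2 -0.087 without mouse 37 and -0.15 without mouse 49 (to 0.270 without mouse 47). Homozygous Ddit4 stayed between -1.33 and -0.87 and Sesn3 between -1.01 and -0.24 without 1 mouse. Causes were not tested. No paired analysis was possible because the labels give no number shared between genotypes. With 2 mice per genotype and no fragment counts, moderate changes, and any change in Gls2, were hardly detectable.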

Other observations

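Sesn2 and Ddit4 also answer to stress inputs other than p53, and the genes of such inputs were read from lists. In the 13 genes of the ATF4 response, 0 passed adjustment in limma, and 1 was higher and 2 lower in homozygous than in wildtype mice at an unadjusted p under 0.05, with a median log2 difference of -0.41, where 8.65% of all tested genes were higher and 9.32% lower. Slc7a5, an amino acid transporter gene, had an FPKM of 66.5 and 125 in wildtype mice, 84.2 and 65.3 in heterozygotes and 38.0 and 52.99 in homozygotes, a difference of -1.02 (SE 0.34, limma adjusted p = 0.224). Vldlr, a lipoprotein receptor gene, had 0.91 (SE 0.27, limma adjusted p = 0.203). Atf4 itself had 108 and 196 in wildtype mice, 146 and 122 in heterozygotes and 121 and 98.5 in homozygotes. Atf4 was chosen for mention after its values were seen.

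In the 15 genes of the glucocorticoid and FoxO response, 0 passed adjustment in limma, and the median was 0.19. In homozygous mice 2 were higher and 0 lower at an unadjusted p under 0.05, where 8.65% of all tested genes were higher and 9.32% lower. The 2 were Trim63 and Tsc22d3 (log2 difference 0.51), the last named after its values were seen. Trim63, a ubiquitin ligase gene of striated muscle, had 2.89 and 3.12 in wildtype mice, 5.98 and 7.29 in heterozygotes and 6.61 and 8.21 in homozygotes, a difference of 1.27 (SE 0.18, limma adjusted p = 0.0709). The skeletal muscle markers were higher in the same mice, and their part was not tested. Sgk1, a kinase gene induced by glucocorticoids, was not one of the 2. It had 0.93 (SE 0.41, unadjusted p = 0.0661, limma adjusted p = 0.308), with wildtype values of 125 and 291.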
